A study of Saccharomyces cerevisiae SK1 with 28 samples.

Results

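ARG82, HMO1, YAP1802, FMP43, CPR1, RPA14 and DCP2 are 7 yeast genes whose promoters carried a listed ChIP-seq peak summit late in starvation and again in sporulation. They were chosen by their listing in both libraries at 21 h in BYTA and in both at 8 h in sporulation medium, out of 551 genes with a listed summit in any library. Their listing at those 2 states is therefore a description and supports nothing. The same condition held for 15 genes. Of the others, 7 (TPM1, NIS1, MRPS17, GCV2, MBF1, BUD7 and HSH49) were listed in every library from 21 h in BYTA onward, and MLS1 shares its summits with DCP2. Just outside the condition lay 12 genes listed in 3 of those 4 libraries, among them KAR2, TAD2, HAS1, RPB11 and SIN3.

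Wild-type SK1, a Saccharomyces cerevisiae strain that sporulates efficiently, was sampled in 7 states, each with 2 ChIP libraries, which makes 14. Vegetative cells were harvested growing exponentially in YPD, without or with the reducing agent DTT, which impairs protein folding in the endoplasmic reticulum. Starved cells came from BYTA, the medium between YPD and sporulation medium, at 6 h and 21 h. Sporulating cells were taken after 5.5 h, 6 h 45 min or 8 h in sporulation medium. Neither the immunoprecipitated protein nor the DTT dose is given in the sources used here, and nothing says that replicates came from separate cultures. The tables listed 4 to 23 summits per library at 21 h in BYTA and in sporulation medium, 13 and 18 in vegetative cells, 296 and 245 with DTT, and 277 and 91 at 6 h in BYTA. Absence from a table does not show absence of binding, and read depth is unknown.

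Many neighbouring yeast genes point away from each other and share the DNA between their starts, so that 1 bound site can lie upstream of both. All 7 genes are of this kind. ARG82 is paired with HMO1, YAP1802 with FMP43, CPR1 with RPA14, and DCP2 with MLS1, so the 7 genes stand for 4 promoters, and each promoter held 1 listed summit per library. ARG82 encodes inositol polyphosphate multikinase, which also takes part in arginine-responsive transcription, and HMO1 a high-mobility-group protein that binds ribosomal DNA and ribosomal protein gene promoters. YAP1802 encodes a clathrin assembly protein of the AP180 family, and FMP43 a subunit of the mitochondrial pyruvate carrier. CPR1 encodes cyclophilin A, a peptidyl-prolyl isomerase that binds cyclosporin, and RPA14 a subunit of RNA polymerase I. DCP2 encodes the catalytic subunit of the mRNA decapping enzyme, and MLS1 the malate synthase of the glyoxylate cycle.

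No member was listed in either vegetative library. With both libraries required, 0 of 7 were called in vegetative cells, where 2.72% of the 551 genes were. With DTT 3 of 7 were called (ARG82, HMO1 and DCP2), against 51.2% of all listed genes. DCP2 alone was called at 6 h in BYTA, where 19.1% of listed genes were, although replicate 1 there listed all 7 members and replicate 2 only DCP2. All 7 were called at 21 h in BYTA, as the choice of members requires, against 4.90% of listed genes.

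In sporulation medium 0 of 7 were called at 5.5 h, where 1.27% of listed genes were called. Replicate 1 at that time listed 4 summits in all and no member, whereas replicate 2 listed all 7 members among 18 summits. The genes of replicate 1 were the 7 left out above as listed in every library from 21 h in BYTA onward. The 0 there therefore follows from the choice of members. At 6 h 45 min 4 of 7 were called (ARG82, HMO1, YAP1802 and FMP43), against 2.36% of listed genes, and replicate 2 listed all 7. The 13 genes called at that time include the 7 left out above. Only 52 genes were listed in any library at 21 h in BYTA or in sporulation medium. All 7 were called at 8 h, again by the choice of members, against 3.09% of listed genes. In every state the longer of both tables held at least as many members as the shorter, and the part of table length in these counts was not tested. The 4 promoters made up 0% and 22.2% of the summits at 5.5 h and 22.2% and 30.8% at 6 h 45 min. These libraries lie outside the stated condition, but leaving out the 7 genes drew on them. The shares at 21 h in BYTA, 18.2% and 17.4%, and at 8 h, 40% and 25%, are set in part by the choice of members. With DTT the share was 1.01% and 0.816%. A share depends on table length, because the 4 promoters held at most 4 summits in any table. Replicate 1 at 6 h in BYTA listed all 4, as the fullest late tables did, but among 277 summits. Replicate 2 there listed 1 among 91. The vegetative tables, with 18 and 13 summits, held none. How much of the contrast between late and DTT shares comes from table length was not tested.

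**Figure D1:**
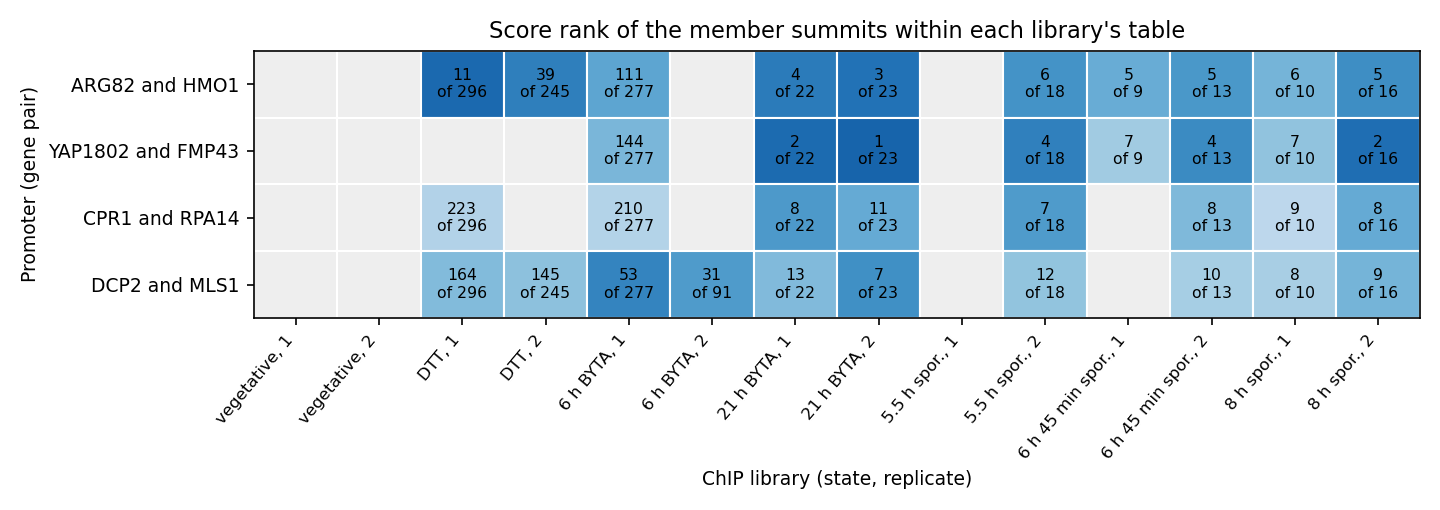
Rank of the summit by the deposited score within its own table (1 is highest), with the number of summits in that table, for the 4 promoters in rows and the 14 ChIP libraries in columns. Darker cells are nearer the top of their table and grey cells were not listed; the vegetative columns and replicate 1 at 5.5 h in sporulation medium hold no member.

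The DNA between ARG82 (SK1_04G03810) and HMO1 (SK1_04G03820) spans positions 799819 to 800295 of chromosome IV in the coordinates of the deposited SK1 tables, a distance of 477 bp. Its summit was listed in 10 libraries. With DTT it ranked 11 of 296 and 39 of 245 by the deposited score, the authors' own value per peak, whose type is not named. At 6 h in BYTA it ranked 111 of 277 in replicate 1 and was not listed in replicate 2. It was thus the highest-scoring of the 4 promoters under DTT, the only state before 21 h in BYTA where both libraries listed it.

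At 21 h in BYTA the ARG82 and HMO1 summit ranked 4 of 22 and 3 of 23. In sporulation medium it ranked 6 of 18 in replicate 2 at 5.5 h, 5 of 9 and 5 of 13 at 6 h 45 min, and 6 of 10 and 5 of 16 at 8 h. Replicate 1 at 6 h 45 min gave the lowest score of the promoter, 455, in a table whose lowest listed score was 317. Measured upstream from ARG82, the summit lay at 240 and 243 bp with DTT and at 257 bp at 6 h in BYTA. It lay at 189 and 185 bp at 21 h in BYTA, at 202 bp at 5.5 h in sporulation medium, at 211 and 196 bp at 6 h 45 min, and at 202 and 204 bp at 8 h. Every late summit was thus closer to ARG82 than any summit with DTT or at 6 h in BYTA, and the ranges lay 29 bp apart.

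YAP1802 (SK1_07G04480) and FMP43 (SK1_07G04490) start 754 bp apart, on either side of positions 962137 to 962890 of chromosome VII. Of the 8 libraries that listed their summit, 7 were late. The exception was replicate 1 at 6 h in BYTA, where it ranked 144 of 277, and neither DTT library listed it. At 21 h in BYTA it ranked 2 of 22 and 1 of 23. In sporulation medium it ranked 4 of 18 in replicate 2 at 5.5 h, 7 of 9 and 4 of 13 at 6 h 45 min, and 7 of 10 and 2 of 16 at 8 h. It was the highest-scoring summit of the whole table in 1 library, replicate 2 at 21 h in BYTA. In replicate 1 at 6 h 45 min it scored 370 beside a lowest listed score of 317, so its listing there was close to the end of the table.

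The summit at YAP1802 varied least in position of the 4 among late libraries. It lay 360 and 362 bp upstream of YAP1802 at 21 h in BYTA, 363 bp at 5.5 h in sporulation medium, 370 and 366 bp at 6 h 45 min, and 362 and 361 bp at 8 h. These 7 values span 10 bp. The summit at 6 h in BYTA lay 448 bp upstream of YAP1802, 78 bp beyond the farthest late one, and rests on 1 library.

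CPR1 (SK1_04G03630) and RPA14 (SK1_04G03640) lie on chromosome IV on either side of positions 759062 to 759585, with 524 bp between their starts. Their summit was low in the long lists, at rank 223 of 296 in DTT replicate 1 and 210 of 277 in replicate 1 at 6 h in BYTA, and replicate 2 of neither state listed it. At 21 h in BYTA it ranked 8 of 22 and 11 of 23. In sporulation medium it ranked 7 of 18 in replicate 2 at 5.5 h, 8 of 13 in replicate 2 at 6 h 45 min, and 9 of 10 and 8 of 16 at 8 h. Replicate 1 at 8 h scored 431 beside a lowest listed score of 383, so its listing there was close to the end of the table.

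The CPR1 and RPA14 summit differed most in position of the 4. It lay 258 bp upstream of CPR1 with DTT and 251 bp at 6 h in BYTA. In the 6 late libraries that listed it, it lay 351 bp upstream of CPR1 at the lowest, 360 bp at the median and 371 bp at the highest. Seen from RPA14, the late summits lay 154 to 174 bp upstream and the other 2 lay 267 and 274 bp upstream. The medians differed by 105.5 bp, while the replicates of 1 state differed by 17 bp at 21 h in BYTA and by 9 bp at 8 h in sporulation medium. No other state had this summit in both replicates.

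DCP2 (SK1_14G01940) and MLS1 start 793 bp apart on chromosome XIV, on either side of positions 408768 to 409560. DCP2 was listed in both libraries of 4 states, DTT, 6 h in BYTA, 21 h in BYTA and 8 h in sporulation medium, and in 10 libraries in all. It ranked 164 of 296 and 145 of 245 with DTT, and 53 of 277 and 31 of 91 at 6 h in BYTA. At 21 h in BYTA it ranked 13 of 22 and 7 of 23. In sporulation medium it ranked 12 of 18 in replicate 2 at 5.5 h, 10 of 13 in replicate 2 at 6 h 45 min, and 8 of 10 and 9 of 16 at 8 h. At 6 h in BYTA it was the highest-scoring of the 4 promoters in replicate 1, while replicate 2 listed none of the others. In no library of another state did it score highest of them.

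The DCP2 summit lay 286 and 291 bp upstream with DTT and 314 and 306 bp upstream at 6 h in BYTA. It lay 256 and 254 bp upstream at 21 h in BYTA, 248 bp at 5.5 h in sporulation medium, 249 bp at 6 h 45 min, and 273 and 241 bp at 8 h. The late summits were all closer to DCP2, with medians of 251.5 bp against 298.5 bp. The ranges lay 13 bp apart, the narrowest gap of the 4 promoters and less than the 32 bp between the 2 replicates at 8 h. On the other hand, 4 libraries outside the late ones listed DCP2, against 1 to 3 for the other promoters.

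**Figure D2:**
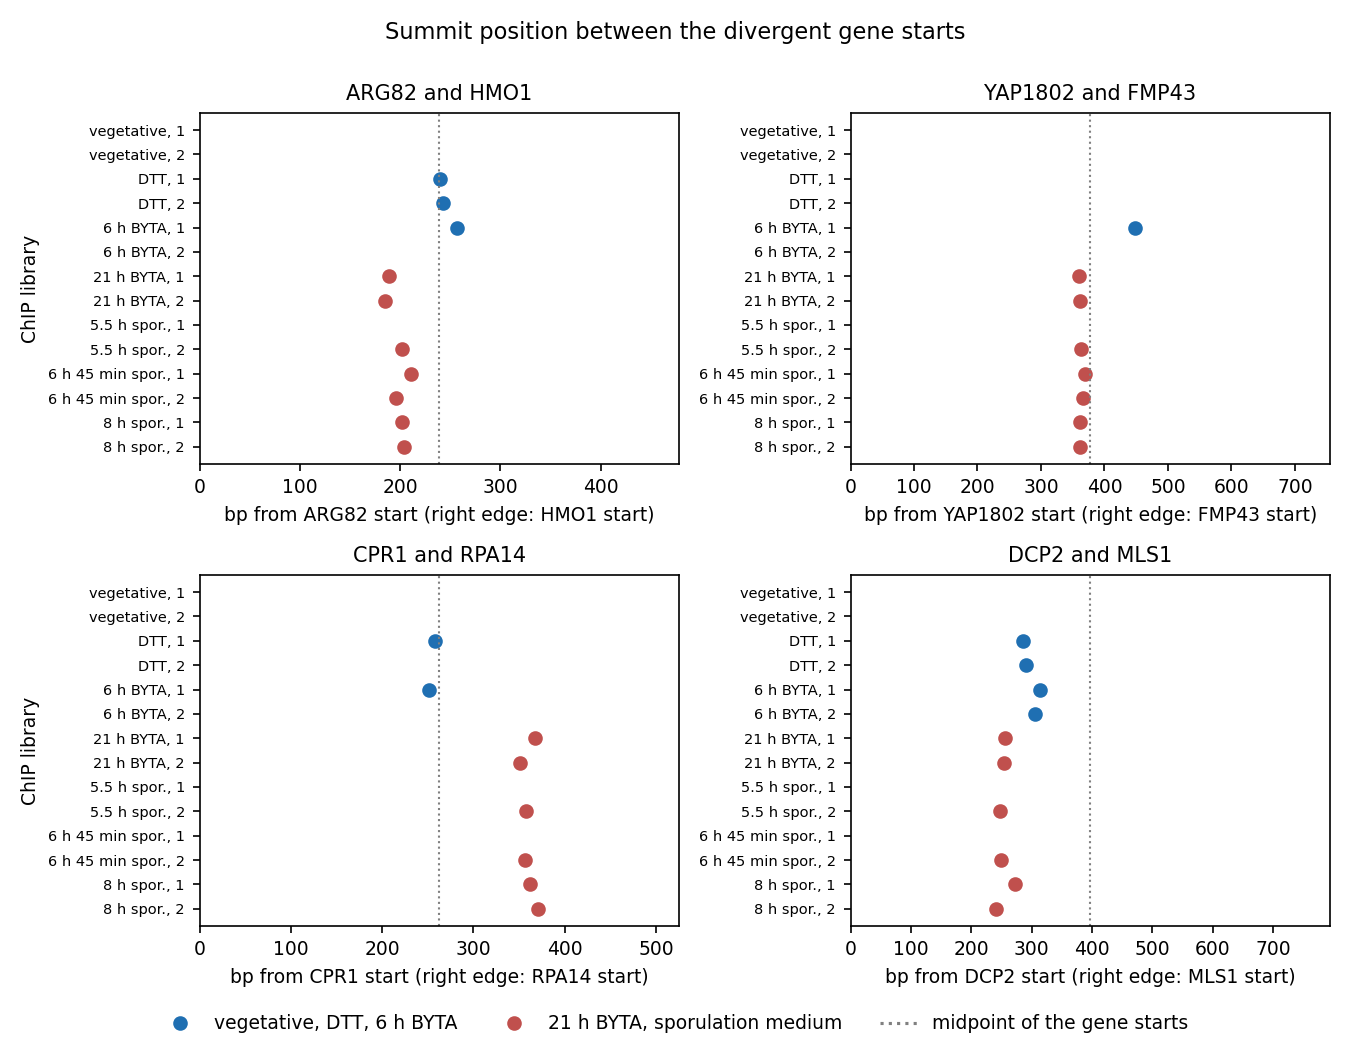
Summit position in bp from the start of the left gene, with the start of the right gene at the right edge, 1 panel per promoter and 1 line per ChIP library. In each panel the red points (21 h in BYTA and sporulation medium) and the blue points (DTT and 6 h in BYTA) occupy separate ranges; at CPR1 and RPA14 the red points lie 351 to 371 bp and the blue points 251 and 258 bp from CPR1.

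At all 4 promoters, then, listed summits of late libraries (21 h in BYTA and sporulation medium) did not overlap those of the other libraries. The groups hold 8 and 6 libraries, but not all of them listed each promoter. ARG82 with HMO1 had 7 late and 3 other libraries, and YAP1802 with FMP43 had 7 and 1. CPR1 with RPA14 had 6 and 2, and DCP2 with MLS1 had 6 and 4. This grouping into late and other libraries was set after the positions were seen, so no test is given. Of the 18 promoters listed in at least 1 library of each group, 9 had ranges that did not overlap, which is 50.0%. Single libraries on one side make such separation easy. The 9 include the 4 members, and of the other promoters 5 of 14 were separate. With at least 2 libraries in each group, 3 of 3 members and 2 of 6 others were separate. Member medians differed by 41 bp at ARG82 and HMO1, 47 bp at DCP2 and MLS1, 86 bp at YAP1802 and FMP43 and 105.5 bp at CPR1 and RPA14. The other 14 promoters differed by a median of 9.25 bp, with a range of 0 to 193 bp. SMT3, with 1 late library, and MDJ1, with 1 other library, differed more than any member, by 193 and 186 bp. Where at least 2 libraries of each group listed the promoter, the 3 member promoters differed by 41 to 105.5 bp and the 6 others by 4 to 52 bp, the last at MBF1 with BUD7.

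**Figure D3:**
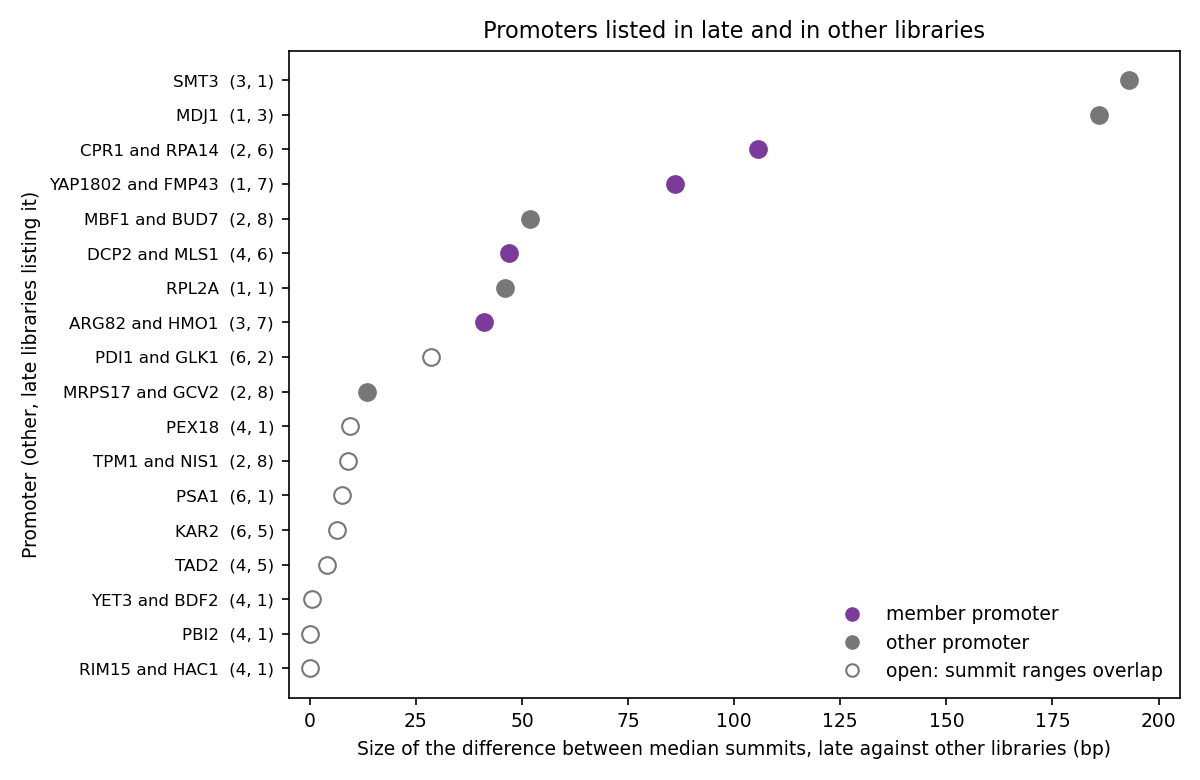
Size in bp of the difference between the median summit of the late libraries and that of the other libraries, for the 18 promoters listed in both groups, with the numbers of other and late libraries in brackets. Filled points have summit ranges that do not overlap; the 4 member promoters lie between 41 and 105.5 bp, while KAR2, TAD2, PBI2 and the RIM15 and HAC1 promoter lie at 6.5 bp or less.

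The difference in position, called displacement here, had no common direction along the chromosome. Whether 1 site moved or different sites were listed in different libraries was not tested. Late summits lay toward higher coordinates at CPR1 and RPA14 and toward lower ones at the other 3 promoters. At 3 of the 4 promoters the late summits lay on the other side of the midpoint between the gene starts, so that the nearer gene differed. HMO1 was nearer in the 3 other libraries and ARG82 in the 7 late ones, although in DTT replicate 1 the summit lay 238 bp from HMO1 and 240 bp from ARG82. FMP43 was nearer in the library at 6 h in BYTA and YAP1802 in the 7 late ones. CPR1 was nearer in 2 libraries and RPA14 in the 6 late ones. DCP2 was nearer than MLS1 in all 10 libraries that listed them. A count that gives each summit to the nearest gene alone would therefore assign different genes to the same promoter in different states, with 4 of 7 members called at 21 h in BYTA and at 8 h, 2 at 6 h 45 min in sporulation medium and 2 with DTT. On that count 2.90%, 1.63% and 1.27% of all listed genes were called at 21 h in BYTA, at 8 h and at 6 h 45 min. With DTT a larger share of all listed genes than of the members was called.

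Where both replicates of a state listed a member promoter, their summits lay closer together than the medians of the late and other libraries. At YAP1802 with FMP43 and at CPR1 with RPA14 only late states had such pairs. Replicate spread outside the late states is therefore unknown at these promoters, which had the largest differences of the 4. Over the 13 pairs of replicates that listed a member promoter, the summits lay a median of 4 bp apart, with a range of 1 to 32 bp. Over all 357 replicate pairs of listed summits the median was 7 bp. Within the late libraries the ranges of 21 h in BYTA and of sporulation medium did not overlap at 1 of the 4 promoters, against 5 of all 20 promoters listed in both, or 25.0%. That promoter was ARG82 with HMO1, at positions 800003 and 800007 in BYTA and 800014 to 800029 in the 5 sporulation libraries. The gap between these ranges is less than the 15 bp between its replicates at 6 h 45 min. At the other 3 promoters the BYTA and sporulation ranges overlapped, and the medians differed by 0.5 to 6.5 bp in size. Across all libraries the summit ranges of the members were 120 bp at CPR1 and RPA14, 88 bp at YAP1802 and FMP43, 73 bp at DCP2 and 72 bp at ARG82 and HMO1. Among the 82 promoters listed in at least 4 libraries these were places 6, 8, 14 and 16 from the widest, and the other 78 had a median range of 21.5 bp. Most of those 78 were listed in fewer libraries than the members, which also bears on a range.

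The order of the 4 promoters within a table can be compared without regard to table length. In the 6 late libraries that listed all 4, YAP1802 with FMP43 scored highest of them in 5 and ARG82 with HMO1 in 1, replicate 1 at 8 h in sporulation medium. Replicate 1 at 6 h 45 min, which listed only these pairs, also had ARG82 with HMO1 higher, so that ARG82 with HMO1 scored above YAP1802 with FMP43 in 2 of 7 late libraries. In the 6, the lowest was DCP2 in 4 and CPR1 with RPA14 in 2. Both ARG82 with HMO1 and YAP1802 with FMP43 scored above both remaining promoters in 6 of 6. The single other library with all 4, replicate 1 at 6 h in BYTA, had a different order, with DCP2 first, then ARG82 with HMO1, YAP1802 with FMP43, and CPR1 with RPA14. In both DTT libraries ARG82 with HMO1 scored above DCP2.

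Similarity of listing was measured by the Jaccard index, the libraries listing both promoters divided by those listing either, over the 14 libraries. It is a description to which tables of very different length contribute. It also counts the 4 libraries by which the members were chosen, and MBF1, BUD7, TPM1, NIS1 and HSH49 are listed in those 4 too, so part of the similarity is built in. Among themselves the 4 promoters had indices of 0.636 to 0.818. Outside them MBF1 with BUD7 was the most similar to each of the 4, with 0.818 for ARG82 and HMO1, 0.8 for YAP1802 and for CPR1, and 0.667 for DCP2. MBF1 encodes a transcriptional coactivator and BUD7 a cargo adaptor of Golgi exit. TPM1 with NIS1, where TPM1 encodes tropomyosin, followed for ARG82 at 0.667 and for CPR1 at 0.636, and HSH49, a splicing factor gene, stood at 0.636 for ARG82 and at 0.778 for YAP1802. For YAP1802 another 4 genes tied at 0.636, and for CPR1 another 6 tied at 0.625. For DCP2, KAR2, which encodes an ER chaperone, stood at 0.615 and TPM1 with NIS1 at 0.538. Over the 10 libraries outside 21 h in BYTA and 8 h in sporulation medium, MBF1 with BUD7 had an index of 0.714 for ARG82. It was 0.667 for YAP1802 and for CPR1, and 0.5 for DCP2, where KAR2 had 0.556. The 4 promoters had indices of 0.429 to 0.714 among themselves over these 10. Only promoters already picked over all 14 libraries were compared here, so the most similar gene over the 10 is not known. PDC1, listed like DCP2 in both libraries with DTT and both at 6 h in BYTA, was not among them.

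The other genes of the members' pathways were listed about as often as yeast genes in general. In 7 lists of functional partners, 101 genes in all, 9 were listed in any library, which is 8.91%, against 9.15% of the 6021 protein-coding genes in the RefSeq table. With DTT 5 were called, 4.95% against 4.68% of coding genes, and at 6 h in BYTA 1 was, 0.990% against 1.74%. At 21 h in BYTA or in sporulation medium 1 was listed, 0.990% against 0.864%. That gene was IFH1, a coactivator of ribosomal protein genes, which like HMO1 acts at those promoters. Its summit lay 521 bp upstream in replicate 2 at 5.5 h and in replicate 2 at 8 h in sporulation medium, at rank 13 of 18 and 13 of 16. Of 21 genes for RNA polymerase I and its initiation factors, RPA14 aside, 0 were listed in any library. Of 12 other peptidyl-prolyl isomerase genes ESS1 was listed, in both DTT libraries at rank 176 of 296 and 215 of 245.

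Of 25 genes for decapping and decay of mRNA besides DCP2, DHH1, which encodes a decapping activator, was called with DTT at rank 71 of 296 and 85 of 245, and NOT5 was listed in replicate 1. Of 15 genes for clathrin adaptors and endocytosis besides YAP1802, APS2 was called with DTT, 381 and 373 bp upstream, and listed in replicate 1 at 6 h in BYTA. Of 10 genes for pyruvate entry and use besides FMP43, PDC1 was called with DTT and at 6 h in BYTA, and PYC1 with DTT. The list of inositol polyphosphate and arginine control had ARG80 in DTT replicate 2, at rank 239 of 245, and the list with HMO1 had IXR1 in replicate 1 at 6 h in BYTA. None of these genes apart from IFH1 was listed at 21 h in BYTA or in sporulation medium. For comparison with the lists, 4.68% of all coding genes were called with DTT and 1.74% at 6 h in BYTA.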

How the data were processed

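ChIP-seq summits of wild-type SK1 yeast were taken from 14 deposited tables, 1 per ChIP library. Input libraries, also 14, were not used here. The submitters' processing notes name ChIPseeker 1.44.0, MACS2 2.2.9.1, Bowtie2 2.3.4.1 and SAMtools 1.7 but no step for any of them. Genome build, peak-calling control and the selection of listed summits: not given in the sources used here. Peak names carry a library name, which tied each table to 1 library. The deposited score of a summit, per the file headers, is the authors' own value of unnamed type and was used to rank or filter summits within a table. Positions are those of the deposited SK1 tables.

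Calling a gene in a state required that both libraries list a summit in its promoter window of 600 bp. The gene start was taken as the base next to that window. Gene counts leave out 10 identifiers that lack a systematic name, and the RefSeq table of R64 held every other name. The members and lists were chosen with earlier results of these data known. The genes named are the members, genes sharing their summits, up to 5 genes per promoter most similar in listing, with ties at the fifth place given as a count, and listed genes of 7 pathway lists, besides genes named after their values were seen. No test was run, since the choice of members used the listing and 2 libraries stand in each state. Motifs were not searched, because no sequence was used here. Functions for distances and displacement were tested on simulated data, and the function for similarity on a fixed example. Python 3.11.15, NumPy 2.4.6 and Matplotlib 3.10.9 were used.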

Additional observations from a re-analysis of the deposited data

How the results depend on the processing

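The numbers of members called rested on single replicates in 4 states. Counting a gene listed in either library gave 5 members with DTT, where 68.6% of listed genes were then called, and 7 at 6 h in BYTA, where 62.8% were. It gave 7 also at 5.5 h and at 6 h 45 min in sporulation medium, where 5.26% and 4.90% were. Leaving out 1 replicate gave 3 to 5 with DTT, with 54.4% to 65.3% of listed genes called. At 6 h in BYTA it gave 1 to 7, with 20.1% to 61.7% called. At 5.5 h it gave 0 to 7, with 1.27% to 5.26%. At 6 h 45 min it gave 4 to 7, with 2.90% to 4.36%. Giving a summit to the nearest gene alone gave 4 at 21 h in BYTA, 2 at 6 h 45 min and 4 at 8 h. Of all listed genes 2.90%, 1.27% and 1.63% were then called. A score of at least 500 left 0 at 6 h 45 min, where 0.726% of listed genes were called. It left 5 of 7 at 21 h in BYTA and at 8 h, where 3.27% and 2.36% were.

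The displacement of late summits kept its sign at all 4 promoters in each alternative, all chosen after seeing the data. Without DTT the ARG82 and HMO1 summits differed by -55 bp in place of -41. Without 6 h in BYTA they differed by -39.5 bp, and those of DCP2 by -37 in place of -47. Without replicate 2 DCP2 gave -35.5 bp. Promoters whose ranges did not overlap numbered 5 of 9 with at least 2 libraries on each side, 4 of 6 without replicate 1 and 9 of 17 without replicate 2, against 9 of 18. Without replicate 1 of each state, CPR1 and YAP1802 had no summit outside the late libraries, and without 6 h in BYTA YAP1802 had none, so these gave no value. No paired fit was made, since no test was run. Short tables and unknown depth limit every absence.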
